A study of Homo sapiens with 21 samples.

Results

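The comparison described here set MCF10A cells harvested 240 min after epidermal growth factor (EGF) was added against cells harvested 120 min after it, across all genes. Its members were the 3 arrays of the EGF 240 min group and the 3 arrays of the EGF 120 min group, chosen by their labelled times, 6 of the 21 arrays of the series. MCF10A is an immortalised, non-tumorigenic line of human mammary epithelial cells. Both groups had spent 24 h in EGF-free medium and then 24 h in starvation medium with 1% horse serum before EGF was added at 20 ng/ml, and they differed by label only in the time of harvest. Each time had 3 biological replicates, labelled A, B and C, and the other times of the series were 0 min (untreated, before EGF), 20, 40, 60 and 480 min with 3 arrays each. No untreated arrays of 120 or 240 min were among the samples, so changes that followed EGF cannot be told apart from changes with time in culture or with handling.

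EGF binds the receptor EGFR on epithelial cells and switches on the ERK kinase cascade. Within minutes this cascade induces immediate early genes, many of them transcription factors, whose messages are short-lived. These are followed by delayed early genes, among them phosphatases and adaptors that damp the same cascade, secreted ligands and cytokines, and later by genes of migration, growth and the cell cycle. Untransformed mammary epithelial cells need EGF to leave quiescence and enter S phase.

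Expression was read as 1 intensity per probeset on an exon array. Values below are log2(intensity + 16), a gene's value being the median of its probesets that carry a single gene symbol and passed a filter on dim signal. A change is the mean at 240 min minus the mean at 120 min on this scale, so a negative change means lower at 240 min, and changes of dim genes are understated. Values after ± are standard errors of the change between 3 and 3 arrays in limma. In the main fit they and p rest on 1 spread per gene shared by all 21 arrays, not on the 6 arrays alone. Genes whose p, adjusted by Benjamini-Hochberg over all 16614 genes tested, was under 0.05 are termed called. Besides leaving out arrays, 10 other settings were run, namely the mean in place of the median of probesets, no filter on dim signal or one at the 75th percentile, a fit to the 6 arrays alone, an intensity trend, the array index described next as a covariate, a pseudocount of 1 or of 64, and arrays scaled by quantiles or centred on their medians. Under the 75th percentile filter 12 of the genes examined had too few probesets and were not fitted, among them GEM, LIF, CCL20, TSLP, NAV3, KCNJ15, VSIG1, CST5 and IFIT1. A setting is named beside a gene where it ended or made its call or moved a called value by over 1.5 times, except that the pseudocount of 64, which shrinks changes of dim genes, is named only where it bears on a call. Arrays correlated across genes at 0.981 to 0.987 within the 240 min group and at 0.944 to 0.978 within the 120 min group, against 0.957 to 0.981 between the groups. An index of each array, obtained by subtracting the median log2 value of probesets without a gene name from that of probesets with 1 gene, averaged 1.30 ± 0.04 (SD, n = 3) at 240 min and 1.32 ± 0.10 (SD, n = 3) at 120 min. The 120 min arrays were thus the more spread of both groups, with A lowest at 1.22 and C highest at 1.42. In these bulk samples, fewer cells of a type and less RNA per cell cannot be told apart.

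In all, 256 genes were called at 240 against 120 min, which is 1.54% of those tested. Of these, 74 were higher at 240 min (0.445% of all genes tested) and 182 were lower (1.1%). Falls were larger than rises. The median size of a called fall was 0.65 and 25 of the 182 falls exceeded 1 on the log2 scale. The median called rise was 0.60 and none of the 74 reached 1 in the main fit, although some exceeded 1 under other settings. Over all genes the median change was -0.007 and 48.0% of changes were positive. All 256 called genes were annotated as protein-coding, as were 15707 of the 16614 genes tested, so most genes that could be called were of this class. In limma no call was made among 331 transcribed pseudogenes, 309 long non-coding RNAs and 139 pseudogenes, of which 16, 7 and 8 had an unadjusted p under 0.05. All 3 arrays of 240 min lay on the same side of all 3 arrays of 120 min for each called gene. The same was true of 1083 genes in the upward direction (6.52%) and 1484 in the downward direction (8.93%) over all genes tested. Fitted to the 6 arrays alone, 119 genes were called. The number called depended on single arrays. It was 124 without array A of 240 min, 150 without B and 162 without C of that time, and 154 without array C of 120 min.

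**Figure D1:**
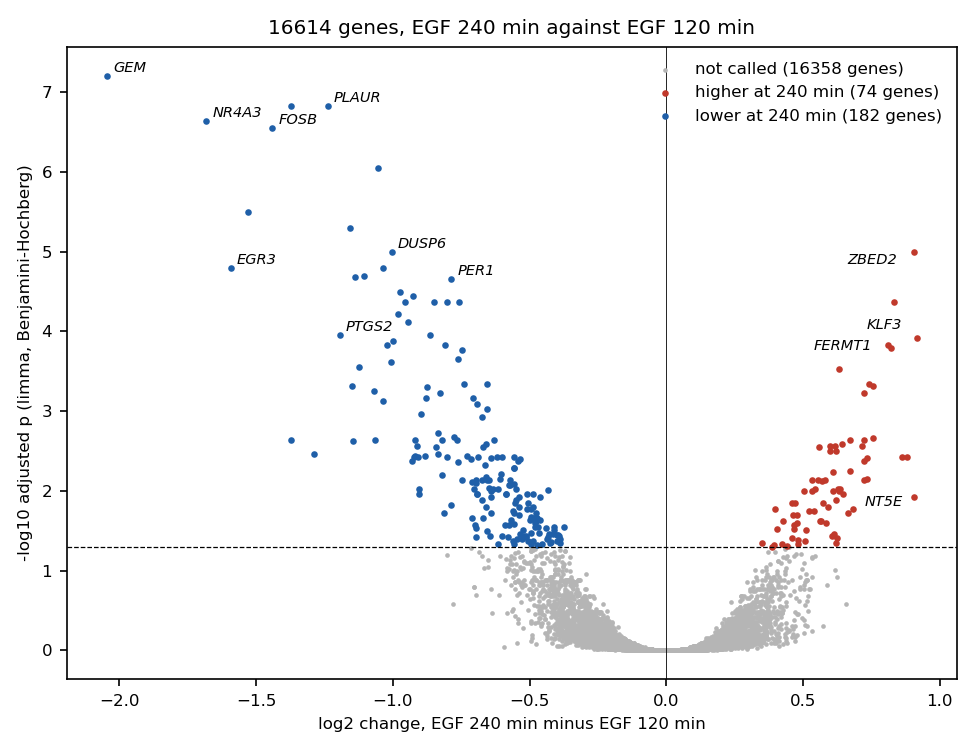
Change of each of the 16614 genes tested (horizontal axis, log2 scale, EGF 240 min minus EGF 120 min) against the -log10 of its adjusted p (vertical axis). Red points are the 74 genes called higher at 240 min and blue points the 182 called lower; the dashed line marks an adjusted p of 0.05, and falls reach further out than rises, with GEM farthest left.

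Among the genes that fell most were regulators that had been higher earlier after EGF. GEM, a small GTPase that restrains calcium channels, had the largest called change. Its values were 5.73, 5.64 and 5.67 at 240 min, against 7.49, 7.51 and 8.16 at 120 min. The arrays of the times were far apart, and the change was -2.04 ± 0.15, adjusted p = 6.19e-08, a 4.13-fold difference. Against untreated cells GEM was at 0.25 at 240 min and 2.29 at 120 min, so its level at 240 min was close to that before EGF, where the difference did not pass the test.

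Immediate early transcription factors made up the list with the most falls. Of 32 members tested, 9 fell (28.1%, against 1.1% over all genes), none rose and 23 did not pass. In limma 2 were higher at an unadjusted p under 0.05. The median change was -0.34 against -0.007 over all genes. The orphan nuclear receptor NR4A3 had 5.13, 5.02 and 5.18 at 240 min, against 6.62, 6.63 and 7.13 at 120 min, a change of -1.68 ± 0.14, adjusted p = 2.34e-07. Its relative NR4A1 had 5.33, 5.33 and 5.29 at 240 min, against 6.54, 6.38 and 6.51 at 120 min, a change of -1.16 ± 0.12, adjusted p = 4.95e-06. For both receptors, all 240 min arrays lay about 1 log2 unit or more below all 120 min arrays. EGR3, a zinc-finger factor of the EGR family, had 6.7, 5.97 and 6.55 at 240 min, against 8.11, 7.82 and 8.07 at 120 min, a change of -1.59 ± 0.18, adjusted p = 1.6e-05. FOSB, a FOS-family partner in the dimeric factor AP-1, had 5.48, 5.28 and 5.41 at 240 min, against 6.78, 6.89 and 6.82 at 120 min, a change of -1.44 ± 0.12, adjusted p = 2.82e-07. These 4 genes had stood at 1.6, 1.15, 1.87 and 1.53 against untreated cells at 120 min in the same order, and each was within 0.29 of the untreated level at 240 min.

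The other 5 called members were named after their values had been seen. EGR4, another EGR factor, fell by 0.92 on the log2 scale. KLF10, a Krüppel-like factor also induced by TGF-beta, fell by 0.69. SRF, the serum response factor that binds the promoters of many immediate early genes, fell by 0.63. JUN, the partner of FOS proteins in AP-1, fell by 0.51, and IER3, a survival-associated early response gene, fell by 0.37. The calls of KLF10, SRF, JUN and IER3 each depended on single arrays. KLF10 was no longer called without 240 min A or 120 min C (adjusted p = 0.059 to 0.081), and SRF without 240 min A or C (0.05 to 0.081). JUN was lost without 240 min A or B or 120 min B or C (0.15 to 0.21), and IER3 whichever of the 6 arrays was left out (0.05 to 0.19). Without 240 min A, 5 of the 32 members were called lower, and with the mean of probesets 15 were lower and 2 higher. Not all of the family moved as far. EGR1 had a difference of -0.41 ± 0.13, adjusted p = 0.171, which did not pass, although without 120 min B it did (adjusted p = 0.044). FOS had a difference of -0.48 ± 0.21, adjusted p = 0.463, and JUNB one of -0.16. FOSL1, a long-lived AP-1 component, had a difference of -0.33 and remained far above its untreated level, at 2.42 at 240 min and 2.75 at 120 min. EGR4 and SRF changed by -0.50 and -0.32 with the mean of probesets, with the call kept. KLF10, JUN and IER3 lost the call under 1, 2 and 5 of the 10 settings (adjusted p = 0.052 to 0.21). EGR1 and FOSL1 passed under 1 of the 10 settings each (adjusted p = 0.0013 to 0.0048).

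The list of inhibitors that feed back on ERK and EGFR held 5 falls and 1 rise among 26 members tested, with a median of -0.12. These were 19.2% lower, against 1.1% over all genes, and 3.85% higher, against 0.445%. Among the falls was TNFAIP3, which damps NF-kB signalling and stood on the list of NF-kB genes as well. ERRFI1 (MIG6) binds the EGFR kinase domain and blocks it. It had 8.5, 8.48 and 8.61 at 240 min, against 9.63, 9.61 and 9.65 at 120 min, a change of -1.1 ± 0.12, adjusted p = 2.01e-05. DUSP6, the cytoplasmic phosphatase of ERK, had 9.56, 9.7 and 9.78 at 240 min, against 10.52, 10.61 and 10.92 at 120 min, a change of -1.0 ± 0.11, adjusted p = 1.03e-05. Both were still above untreated cells at 240 min, ERRFI1 by 0.73 and DUSP6 by 2.63. DUSP5, the nuclear phosphatase of ERK, had 7.55, 7.53 and 7.54 at 240 min, against 8.36, 8.49 and 8.38 at 120 min, a change of -0.87 ± 0.13, adjusted p = 0.000501. The 240 min arrays of DUSP5 differed among themselves by no more than 0.02.

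TNFAIP3 (A20), an enzyme that edits ubiquitin chains and damps NF-kB signalling, had 7.79, 7.8 and 7.71 at 240 min, against 8.38, 8.34 and 8.6 at 120 min, a change of -0.67 ± 0.11, adjusted p = 0.00121. It was also the single called member of the 17 NF-kB subunits and feedback genes tested (5.88% lower, against 1.1% over all genes). Of the 17, 15 had negative changes around a median of -0.24. LRIG1 and LRIG3 are related transmembrane proteins, and LRIG1 promotes the degradation of EGFR. They moved apart. LRIG1 fell by 0.48 (adjusted p = 0.025), a call lost whichever of the 6 arrays was left out (0.062 to 0.14). LRIG3 rose by 0.63 (adjusted p = 0.0096), a call lost without 120 min A (0.059), and all 27 of its probesets were higher at 240 min. At 120 min LRIG3 had been at -1.02 against untreated cells, and at 240 min it was at -0.40. The Sprouty gene SPRY4 had a difference of -0.42 ± 0.16, adjusted p = 0.297, and stood at 2.91 against untreated cells at 240 min and 3.33 at 120 min. LRIG1 and LRIG3 lost the call under 1 of the 10 settings each (adjusted p = 0.071 to 0.083).

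The promoter of TNFAIP3 is shown because it carried matches to both the NF-kB and the E-box motif searched for. The sequence runs from 250 bases before to 50 bases after the RefSeq transcription start (GRCh38.p14, plus strand, chr6:137867009-137867308), and capitals mark the E-box CACGTG, whose first base lies 78 bases before the start, and the 10 bases of the kappa enhancer type of NF-kB element, on the other strand, whose first base lies 67 bases before it.
TNFAIP3: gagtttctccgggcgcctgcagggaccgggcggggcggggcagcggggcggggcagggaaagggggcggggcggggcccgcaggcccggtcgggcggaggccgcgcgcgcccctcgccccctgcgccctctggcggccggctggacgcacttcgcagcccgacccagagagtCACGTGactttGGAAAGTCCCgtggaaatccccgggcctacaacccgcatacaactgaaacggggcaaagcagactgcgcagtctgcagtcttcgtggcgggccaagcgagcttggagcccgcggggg
The NF-kB element occurred, on either strand, in 0.199% of the 13067 promoters of tested genes, and in 0.671% of the 149 promoters of called falls, which is this promoter alone. A match describes letters and does not show a bound factor.

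EREG (epiregulin), an EGFR ligand, had 8.32, 8.25 and 8.46 at 240 min, against 9.42, 9.23 and 9.45 at 120 min, a change of -1.02 ± 0.14, adjusted p = 0.000146. It was the single called member of the 14 EGF family ligands, receptors and sheddases (7.14% lower, against 1.1% over all genes). HBEGF, another EGFR ligand, had a difference of -0.55 ± 0.16, adjusted p = 0.102, and EPGN one of -0.78 ± 0.28, adjusted p = 0.262, which passed without 120 min A (adjusted p = 0.031). The receptor EGFR itself had a difference of 0.09. HBEGF was at 2.83 and EREG at 1.48 against untreated cells at 240 min, so both messages were still well above the level before EGF. HBEGF and EPGN passed under 2 and 3 of the 10 settings (adjusted p = 0.0048 to 0.049).

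Of 22 chemokines and cytokines tested, 4 fell (18.2%, against 1.1% over all genes), with a median of -0.14. None rose (1 was higher at an unadjusted p under 0.05 in limma). IL36G, an interleukin 1 family cytokine of epithelia, had 6.55, 6.78 and 6.64 at 240 min, against 7.38, 8.21 and 8.25 at 120 min, a change of -1.29 ± 0.23, adjusted p = 0.00337. Array A of 120 min was about 0.8 below the others of its time but still above all arrays of 240 min. LIF, a cytokine that signals through gp130, had 7.04, 7.21 and 7.14 at 240 min, against 7.85, 7.74 and 8.27 at 120 min, a change of -0.82 ± 0.16, adjusted p = 0.00633, which was lost without 120 min C (adjusted p = 0.059). CCL20, a chemokine for lymphocytes and dendritic cells, had 6.18, 6.31 and 6.56 at 240 min, against 6.95, 7.08 and 7.31 at 120 min, a change of -0.76 ± 0.13, adjusted p = 0.00227. TSLP, an epithelial cytokine, fell by 0.62 (adjusted p = 0.047), a call kept only without 120 min B and lost on leaving out each of the other 5 arrays (0.056 to 0.31). Without 120 min C, 2 of the 22 were called, and with the filter at the 75th percentile, under which LIF, CCL20 and TSLP were not fitted, 1 was. Interleukin 8 (CXCL8) had a difference of -0.38 ± 0.19, adjusted p = 0.614, while IL1B at 0.37 ± 0.13, adjusted p = 0.231 and IL33 at 0.30 ± 0.17, adjusted p = 0.687 were among the 8 with positive values, none of them passing. TSLP had a change of -0.17 without the filter on dim signal and was not called there (adjusted p = 0.84). TSLP lost the call under 4 of the 10 settings (adjusted p = 0.06 to 0.84). CXCL8 passed under 1 of the 10 settings (adjusted p = 0.03).

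Further falls were those of PTGS2, PTGER4, PLAUR and HAS3. PTGS2, the inducible cyclooxygenase of prostaglandin synthesis, had 5.91, 6.29 and 6.0 at 240 min, against 7.4, 6.98 and 7.4 at 120 min, a change of -1.2 ± 0.16, adjusted p = 0.000109. PTGER4, a receptor for prostaglandin E, fell by 0.61 (adjusted p = 0.00614). PLAUR, the receptor for the protease urokinase, had 8.49, 8.53 and 8.58 at 240 min, against 9.85, 9.71 and 9.75 at 120 min, a change of -1.24 ± 0.10, adjusted p = 1.51e-07. Its 3 arrays of 240 min lay within 0.09 of each other and more than 1 log2 unit below those of 120 min. HAS3, a hyaluronan synthase, had 7.12, 7.28 and 7.14 at 240 min, against 8.27, 8.25 and 8.12 at 120 min, a change of -1.03 ± 0.11, adjusted p = 1.6e-05. PLAUR and HAS3 were still above untreated cells at 240 min, by 0.84 and 1.3. HAS3 had a change of -0.10 with the filter on dim signal at the 75th percentile and was not called there (adjusted p = 0.96). HAS3 changed by -0.42 with the mean of probesets, with the call kept. HAS3 changed by -0.55 without the filter on dim signal, with the call kept.

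Several further falls concerned genes above untreated cells at 120 min. SMOX, which oxidises spermine, fell by 0.64 (adjusted p = 0.00388). FOXA1, a pioneer factor of luminal cells, fell by 0.86 (adjusted p = 0.000106). BLID, a BH3-like cell death inducer, fell by 1.15, and ARL14, an ARF-like GTPase, fell by 1.15 as well, although ARL14 had not passed the test against untreated cells at 120 min (adjusted p = 0.062). The genes that follow were chosen after their values had been seen. THBD (thrombomodulin) fell by 0.95, the histone H3 lysine 27 demethylase KDM6B by 0.76, the immune checkpoint ligand CD274 (PD-L1) by 0.81, and DNMBP, a scaffold and exchange factor for CDC42, by 1.00. SOX9, a factor of mammary progenitors, fell by 0.93, a call lost without 240 min A (adjusted p = 0.052). At 240 min THBD, SOX9, KDM6B and DNMBP were between -0.08 and 0.31 against untreated cells. CD274 changed by -0.51 with the filter on dim signal at the 75th percentile, with the call kept.

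**Figure D2:**
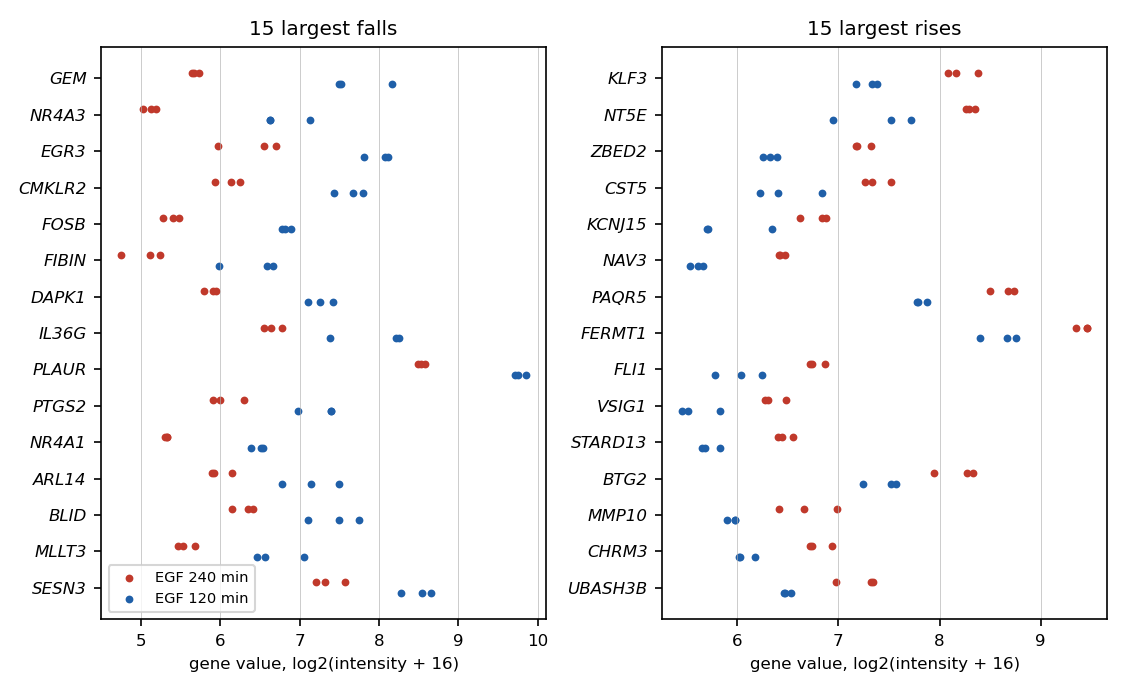
Gene values on the log2(intensity + 16) scale for the 15 largest called falls (left panel) and the 15 largest called rises (right panel), with each gene's 3 arrays at EGF 240 min in red above its 3 arrays at EGF 120 min in blue. The red and blue points of a gene do not overlap in any row. The changes in mean are larger on the left than on the right, although some gaps between red and blue points are wider on the right.

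A second set of falls concerned genes that were below their level in untreated cells at 240 min, some of them already so at 120 min. DAPK1, a calmodulin-regulated kinase linked to cell death, had 5.79, 5.95 and 5.91 at 240 min, against 7.1, 7.25 and 7.42 at 120 min, a change of -1.37 ± 0.11, adjusted p = 1.51e-07. Against untreated cells it was at -1.8 at 240 min and -0.43 at 120 min. CMKLR2, a receptor for chemerin, had 5.93, 6.24 and 6.13 at 240 min, against 7.43, 7.67 and 7.8 at 120 min, a change of -1.53 ± 0.15, adjusted p = 3.23e-06. FIBIN, a secreted protein known from fin bud development in zebrafish, had 5.24, 5.11 and 4.75 at 240 min, against 5.98, 6.66 and 6.59 at 120 min, a change of -1.37 ± 0.24, adjusted p = 0.00227. The 240 min values of FIBIN were close to the level of the filter on dim signal, 5.18, as were those of NR4A3, so these falls are understated. MLLT3, a chromatin reader of the super elongation complex, had 5.68, 5.53 and 5.46 at 240 min, against 6.57, 6.46 and 7.05 at 120 min, a change of -1.14 ± 0.13, adjusted p = 2.14e-05. CMKLR2, FIBIN and MLLT3 stood at -1.89, -2.28 and -1.24 against untreated cells at 240 min and at -0.36, -0.90 and -0.10 at 120 min, where FIBIN had passed that test and the other 2 had not. CMKLR2 had a change of -0.40 without the filter on dim signal and was not called there (adjusted p = 0.74). CMKLR2 and MLLT3 changed by -0.92 and -0.69 with the mean of probesets, with the call kept. MLLT3 changed by -0.56 without the filter on dim signal, with the call kept.

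FOXO factors are held in the cytoplasm when growth factor signalling through AKT is active, and their targets restrain growth. Of 32 FOXO targets and growth restraint genes tested, 4 fell, 1 rose and 27 did not pass, around a median of -0.10. These were 12.5% lower, against 1.1% over all genes, and 3.1% higher, against 0.445%. SESN3, a sestrin that restrains mTORC1, had 7.21, 7.58 and 7.32 at 240 min, against 8.28, 8.54 and 8.66 at 120 min, a change of -1.12 ± 0.16, adjusted p = 0.000281. ARRDC3, an alpha-arrestin of receptor turnover, fell by 0.70, its relative ARRDC4 by 0.47 and the antiproliferative adaptor TOB2 by 0.47. SESN3 kept its call whichever array was left out, and the others did not. ARRDC3 was lost without 240 min A or 120 min B or C (adjusted p = 0.059 to 0.1). ARRDC4 and TOB2 were lost on leaving out any array other than 120 min A (0.062 to 0.26), and 1 or 2 of the 32 were called lower in those 5 cases, and 1 in the fit to the 6 arrays alone. TXNIP, an inhibitor of thioredoxin and glucose uptake, had a difference of -0.29 ± 0.10, adjusted p = 0.252. The single rise of the list was BTG2, described with the rises. TOB2 changed by -0.28 with the mean of probesets, with the call kept. ARRDC3, ARRDC4 and TOB2 lost the call under 1, 1 and 3 of the 10 settings (adjusted p = 0.055 to 0.2).

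Other falls of this kind were chosen after their values had been seen, and all of those named next kept their call whichever array was left out. MBNL2, a splicing regulator, had 8.8, 8.76 and 8.73 at 240 min, against 9.8, 9.76 and 9.9 at 120 min, a change of -1.06 ± 0.10, adjusted p = 8.77e-07, and all 15 of its probesets were lower at 240 min. CYP1B1, a cytochrome P450 of oestrogen and xenobiotic oxidation, fell by 0.98, and FGFR2, a fibroblast growth factor receptor, by 0.76. KRT15, a basal keratin, fell by 0.75, and LAMB1, a laminin chain, by 0.72. TNFSF10, the death ligand TRAIL, fell by 1.06, NAV2, a cytoskeleton-associated helicase-domain protein, by 0.78, and the ephrin receptor EPHA5 by 0.71. KRT15 went on to -2.28 against untreated cells at 480 min, with -1.08 at 240 min and -0.33 at 120 min. MBNL2 was at -1.11 at 240 min and -0.57 at 480 min, so part of its fall had been regained by then.

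Rises were of several courses. In one, genes already above the untreated level at 120 min were higher again at 240 min. NT5E (CD73), the surface enzyme that makes adenosine from AMP, had 8.27, 8.29 and 8.35 at 240 min, against 6.95, 7.52 and 7.72 at 120 min, a change of 0.91 ± 0.19, adjusted p = 0.0124. Array A of 120 min lay 0.57 or more below the others, and the call was lost without it (adjusted p = 0.073) and without any 1 array of 240 min (0.053 to 0.062). FERMT1 (kindlin-1), which activates integrins in epithelia, had 9.34, 9.45 and 9.46 at 240 min, against 8.4, 8.67 and 8.75 at 120 min, a change of 0.81 ± 0.11, adjusted p = 0.000146. PAQR5, a membrane progestin receptor, had 8.73, 8.68 and 8.5 at 240 min, against 7.88, 7.78 and 7.79 at 120 min, a change of 0.82 ± 0.11, adjusted p = 0.000156. Against untreated cells FERMT1 and PAQR5 were at 1.78 and 2.25 at 240 min. NT5E lost the call under 1 of the 10 settings (adjusted p = 0.056).

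Of 20 proteases of migration and their inhibitors tested, 3 rose and 1, PLAUR, fell, with a median of 0.14. These were 15% higher, against 0.445% over all genes, and 5% lower, against 1.1%. MMP10 (stromelysin-2) had 6.41, 6.66 and 6.99 at 240 min, against 5.98, 5.9 and 5.98 at 120 min, a change of 0.73 ± 0.14, adjusted p = 0.00715. The 240 min arrays were spread over 0.58, and the call was lost without the highest of them, C (adjusted p = 0.069), when 1 of the 20 was called higher. With the mean of probesets 6 were. MMP1, the interstitial collagenase, had 7.08, 7.11 and 7.24 at 240 min, against 6.64, 6.55 and 6.47 at 120 min, a change of 0.59 ± 0.13, adjusted p = 0.0156, lost on leaving out any array other than 120 min A (0.053 to 0.096). ADAMTS1, a secreted protease of the matrix, had 6.23, 6.28 and 6.28 at 240 min, against 5.79, 5.6 and 5.53 at 120 min, a change of 0.62 ± 0.11, adjusted p = 0.00315. MMP10 was at -0.15, 0.18, 0.23, 0.98, 1.72 and 3.72 against untreated cells at 20, 40, 60, 120, 240 and 480 min. MMP1 was at 4.44 at 480 min. ADAMTS1 had been near its untreated level at 120 min, at -0.08, and was at 0.54 at 240 min. MMP10 and MMP1 were 2.0 and 2.12 higher at 480 than at 240 min. ADAMTS1 changed by 1.28 with the filter on dim signal at the 75th percentile, with the call kept. MMP10 and MMP1 lost the call under 1 of the 10 settings each (adjusted p = 0.06 to 0.19).

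The MMP10 promoter is shown because it held a match to the AP-1 element. It is given from RefSeq (GRCh38.p14, minus strand, chr11:102780579-102780878) over the same window, with TGAATCA in capitals, a match to TGANTCA whose first base lies 67 bases before the start.
MMP10: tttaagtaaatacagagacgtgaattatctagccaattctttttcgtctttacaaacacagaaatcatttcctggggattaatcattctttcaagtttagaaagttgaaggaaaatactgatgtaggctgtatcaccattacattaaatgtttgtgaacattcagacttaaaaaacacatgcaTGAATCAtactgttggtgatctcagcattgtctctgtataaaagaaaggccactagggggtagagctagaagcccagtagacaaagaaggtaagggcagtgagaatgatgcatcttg
TGANTCA occurred, on either strand, in 5.77% of 52 promoters of called rises, in 6.04% of 149 promoters of called falls and in 5.2% of all 13067, so the shares lay close together.

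ZBED2, a zinc-finger factor of keratinocytes, had 7.33, 7.19 and 7.17 at 240 min, against 6.25, 6.39 and 6.32 at 120 min, a change of 0.90 ± 0.10, adjusted p = 1.03e-05. NAV3, a microtubule-associated protein, had 6.42, 6.42 and 6.47 at 240 min, against 5.61, 5.54 and 5.67 at 120 min, a change of 0.83 ± 0.10, adjusted p = 4.32e-05. KCNJ15, an inward rectifier potassium channel, had 6.84, 6.62 and 6.88 at 240 min, against 5.71, 5.7 and 6.34 at 120 min, a change of 0.86 ± 0.16, adjusted p = 0.00379. Array C of 120 min was 0.63 above the other arrays of its time for KCNJ15 and still below all of 240 min. FLI1, an ETS factor, rose by 0.76, VSIG1, a junctional immunoglobulin protein, by 0.75, the muscarinic receptor CHRM3 by 0.72 and the phosphatase UBASH3B by 0.72. ZBED2 and VSIG1 were near their untreated level at 120 min, at 0.02 and 0.11, and at 0.92 and 0.86 at 240 min. KCNJ15 had a change of 0.47 without the filter on dim signal and was not called there (adjusted p = 0.1). FLI1 had a change of 0.19 without the filter on dim signal and was not called there (adjusted p = 0.86). CHRM3 and UBASH3B changed by 1.58 and 1.1 with the filter on dim signal at the 75th percentile, with the call kept. KCNJ15 and FLI1 lost the call under 2 each of the 10 settings (adjusted p = 0.064 to 0.86).

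In another course, genes below the untreated level at 120 min were nearer to it or above it at 240 min. KLF3, a repressor of the Krüppel-like family, had the largest called rise. Its values were 8.09, 8.16 and 8.38 at 240 min, against 7.18, 7.33 and 7.38 at 120 min, a change of 0.92 ± 0.12, adjusted p = 0.000122. Against untreated cells it was at 0.48, 0.59 and 0.60 at 20, 40 and 60 min, -0.81 at 120 min and 0.10 at 240 min. Hence KLF3 dipped at 120 min between higher values on both sides. CST5 (cystatin D), an inhibitor of cysteine proteases measured by 3 probesets, had 7.26, 7.52 and 7.33 at 240 min, against 6.41, 6.23 and 6.84 at 120 min, a change of 0.88 ± 0.16, adjusted p = 0.00379. STARD13, a GTPase-activating protein with a lipid-binding START domain, had 6.55, 6.4 and 6.44 at 240 min, against 5.66, 5.69 and 5.83 at 120 min, a change of 0.74 ± 0.11, adjusted p = 0.000447. BTG2, an antiproliferative adaptor of the CCR4-NOT deadenylase and a p53 target, had 7.94, 8.28 and 8.33 at 240 min, against 7.57, 7.53 and 7.25 at 120 min, a change of 0.73 ± 0.14, adjusted p = 0.00386. At 120 min these 3 genes had been at -0.75, -0.84 and -0.79 against untreated cells. CST5 had a change of 0.32 with the mean of probesets and 0.13 without the filter on dim signal and was not called there (adjusted p = 0.18 to 0.97). BTG2 changed by 1.2 with the mean of probesets, with the call kept.

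AJUBA, a LIM protein that binds LATS kinases in the Hippo pathway, had 8.55, 8.4 and 8.51 at 240 min, against 7.77, 8.01 and 8.0 at 120 min, a change of 0.56 ± 0.10, adjusted p = 0.00278. It was the single call among 26 SRF and YAP targets of the cytoskeleton (3.85% higher, against 0.445% over all genes). None of the 26 was called higher in the fit to the 6 arrays alone or with the filter at the 75th percentile. Chosen after their values had been seen, RIPK4, a kinase of keratinocyte differentiation, had 7.44, 7.71 and 7.64 at 240 min, against 6.9, 6.94 and 7.13 at 120 min, a change of 0.61 ± 0.12, adjusted p = 0.00578, and RUNX1, a factor of mammary epithelium, rose by 0.60. SGK1, a kinase downstream of PI3 kinase, rose by 0.67, and NUAK2, a kinase related to AMPK, by 0.72. Both SGK1 and NUAK2 had been higher than at 120 min at 20 and 40 min, at 1.21 and 1.0 for SGK1 and 0.56 and 0.88 for NUAK2, and were at -0.21 and -0.16 at 120 min. RIPK4 remained below untreated cells, at -1.01 at 240 min and -1.62 at 120 min. AJUBA had a change of 0.27 with the filter on dim signal at the 75th percentile and was not called there (adjusted p = 0.49). SGK1 had a change of 0.41 without the filter on dim signal and was not called there (adjusted p = 0.25). NUAK2 had a change of 0.24 without the filter on dim signal and was not called there (adjusted p = 0.66). AJUBA and RUNX1 changed by 0.31 and 0.39 with the mean of probesets, with the call kept. AJUBA and RIPK4 lost the call under 2 and 1 of the 10 settings (adjusted p = 0.058 to 0.49).

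**Figure D3:**
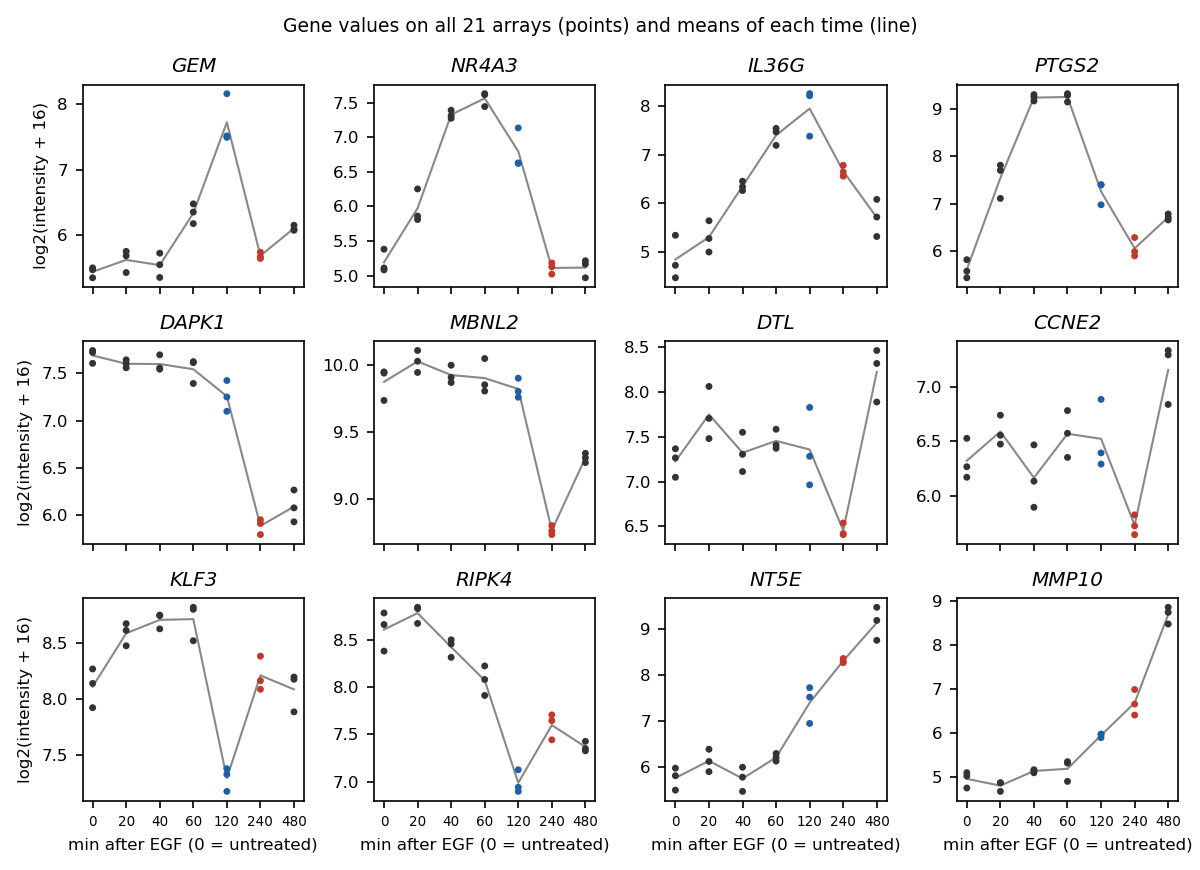
Values of 12 genes on all 21 arrays (vertical axes, log2(intensity + 16)) by time after EGF (horizontal axes, min, evenly spaced, 0 being untreated); points are arrays, red at 240 min and blue at 120 min, and lines join the means of each time. GEM, NR4A3, IL36G and PTGS2 come down after a peak, DAPK1 and MBNL2 drop below their early level, DTL and CCNE2 are lowest at 240 min and highest at 480 min, KLF3 and RIPK4 are lowest at 120 min, and NT5E and MMP10 climb.

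Most changes of DNA replication and mitosis genes were negative. Of 54 members for the G1/S transition and DNA replication, 2 fell (3.7%, against 1.1% over all genes), none rose (2 were higher at an unadjusted p under 0.05 in limma), and 9 changes were positive around a median of -0.17. Over the settings 1 to 6 of the 54 were called lower and 0 to 2 higher. PRIM1, the catalytic subunit of primase, had 6.4, 6.33 and 6.03 at 240 min, against 6.99, 7.0 and 7.31 at 120 min, a change of -0.84 ± 0.15, adjusted p = 0.00278. CCNE2 (cyclin E2), which drives CDK2 at the start of S phase, had 5.73, 5.65 and 5.83 at 240 min, against 6.29, 6.39 and 6.88 at 120 min, a change of -0.79 ± 0.17, adjusted p = 0.0146. The call of CCNE2 was lost without 240 min A or B or 120 min C (adjusted p = 0.075 to 0.13). Of 38 mitosis genes none was called and 1 change was positive, around a median of -0.23. In limma 8 of them were lower at an unadjusted p under 0.05. With all arrays 0 passed after adjustment, but 4 were called lower without 120 min A, namely TOP2A, KIF20A, NUSAP1 and KIF11 (adjusted p = 0.029 to 0.048). The mitosis genes with the smallest adjusted p were NUSAP1, a spindle protein, at -0.55 ± 0.17, adjusted p = 0.137, and TOP2A, topoisomerase II alpha, at -0.39 ± 0.13, adjusted p = 0.196. In the opposite direction, CCND1 (cyclin D1), the partner of CDK4 and CDK6, had a difference of 0.45 ± 0.11, adjusted p = 0.0508, which passed without 240 min C (adjusted p = 0.047), and CDK6 one of 0.62 (adjusted p = 0.0971). PRIM1 and CCNE2 lost the call under 1 and 2 of the 10 settings (adjusted p = 0.058 to 0.15). CCND1 and CDK6 passed under 7 and 3 of the 10 settings (adjusted p = 0.0027 to 0.048).

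Some replication genes were lowest at 240 min and then higher than before EGF. DTL, a substrate receptor of the CUL4 ubiquitin ligase that acts in S phase, had 6.41, 6.54 and 6.42 at 240 min, against 6.96, 7.28 and 7.83 at 120 min, a change of -0.90 ± 0.19, adjusted p = 0.0105. It was at -0.77 against untreated cells at 240 min and 0.13 at 120 min, and at 1.0 at 480 min. CCNE2 was at -0.59, 0.20 and 0.83 at 240, 120 and 480 min. FAM111B, a protease family member, fell by 0.71, and stood at 0.80 against untreated cells at 480 min. DTL and FAM111B were named after their values had been seen. Their calls were lost without 240 min A or C or 120 min C for DTL (adjusted p = 0.052 to 0.095) and without 120 min C or any array of 240 min for FAM111B (0.054 to 0.16), array C of 120 min being the highest of its time for DTL, CCNE2 and FAM111B. DTL and FAM111B lost the call under 1 and 2 of the 10 settings (adjusted p = 0.051 to 0.18).

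Of 58 genes of ribosome assembly and RNA polymerase I, 44 changes were positive around a median of 0.12, and none was called in limma, where 5 were higher and 0 lower at an unadjusted p under 0.05. The 2 with the smallest adjusted p were RRP9, a U3 small nucleolar RNP protein, at 0.33 ± 0.10, adjusted p = 0.128, and MRTO4, a pre-ribosome factor, at 0.35 ± 0.12, adjusted p = 0.263. Of 29 genes of nucleotide and polyamine synthesis, 26 changes were positive around 0.10, and SMOX was the single call, a fall (3.45% lower, against 1.1% over all genes). Of 30 chaperones, 25 changes were positive around 0.13 and 1 was called (3.33% lower). This was DNAJB1, an HSP40 of the heat shock response, which fell, with 7.97, 8.32 and 8.06 at 240 min, against 8.78, 9.01 and 9.2 at 120 min, a change of -0.88 ± 0.14, adjusted p = 0.000691. The 42 cytoplasmic ribosomal proteins had a median of -0.01 and the 31 proteasome genes 0.05, both without a call in limma, and 1 and 0 of them had an unadjusted p under 0.05. DNAJB1 changed by -0.54 with the mean of probesets, with the call kept. RRP9 passed under 4 of the 10 settings (adjusted p = 0.027 to 0.046).

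Of 30 genes of amino acid transport, ATF4 targets and tRNA synthetases, 2 rose (6.67%, against 0.445% over all genes) around a median of 0.00. DDIT4 (REDD1), an inhibitor of mTORC1, had 8.34, 8.59 and 8.89 at 240 min, against 7.96, 7.82 and 7.98 at 120 min, a change of 0.68 ± 0.15, adjusted p = 0.0173, lost without 240 min B or C or 120 min B (0.066 to 0.14). STC2 (stanniocalcin 2), a secreted glycoprotein, had 6.61, 6.73 and 6.73 at 240 min, against 6.11, 6.12 and 6.14 at 120 min, a change of 0.57 ± 0.11, adjusted p = 0.00755. Of 27 genes of glucose uptake and glycolysis, the glucose transporter SLC2A1 alone was called (3.7% lower, against 1.1% over all genes). It fell by 0.43, with 10.45, 10.48 and 10.49 at 240 min, against 10.94, 10.84 and 10.93 at 120 min, and was lost without 240 min A (adjusted p = 0.065). Among 29 interferon-stimulated genes, 6 changes were positive and TRIM22 alone was called (3.45% lower), with a fall of 0.55 that was lost without 240 min A or 120 min C (0.073 to 0.091). IFIT1 had a difference of -0.71 ± 0.18, adjusted p = 0.0524, and passed without 120 min A or B (0.037 to 0.045). The 31 genes of sterol and fatty acid synthesis and the 31 of the ID, BMP and TGF-beta pathway had no call in limma, where 2 and 3 of them had an unadjusted p under 0.05. STC2 had a change of 0.21 with the filter on dim signal at the 75th percentile and was not called there (adjusted p = 0.76). TRIM22 had a change of -0.20 without the filter on dim signal and was not called there (adjusted p = 0.87). SLC2A1 changed by -0.29 with the mean of probesets, with the call kept. DDIT4, SLC2A1 and TRIM22 lost the call under 1, 1 and 2 of the 10 settings (adjusted p = 0.079 to 0.87). IFIT1 passed under 6 of the 10 settings (adjusted p = 0.017 to 0.049).

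Genes of adhesion and epithelial state went both ways. Of 24 integrin, laminin, hyaluronan and matrix genes, FERMT1 rose and HAS3, FERMT2 and TNS3 fell, with a median of -0.01. These were 4.17% higher, against 0.445% over all genes, and 12.5% lower, against 1.1%. FERMT2 (kindlin-2), the widely expressed relative of FERMT1, had 7.5, 7.59 and 7.64 at 240 min, against 7.99, 8.42 and 8.42 at 120 min, a change of -0.70 ± 0.16, adjusted p = 0.0271. The tensin TNS3, which links integrins to actin, fell by 0.69. FERMT2 was lost on leaving out any array other than 120 min A (adjusted p = 0.072 to 0.15) and TNS3 without 240 min C or 120 min C (0.076 to 0.096). Without 240 min C, without 120 min C, or in the fit to the 6 arrays alone, 1 of the 24 was called lower. Among 23 cell junction and transition factor genes, 3 fell (13%, against 1.1% over all genes). GRHL3, a grainyhead factor of epidermal barrier formation, had 7.4, 7.28 and 7.44 at 240 min, against 8.05, 8.38 and 8.45 at 120 min, a change of -0.92 ± 0.16, adjusted p = 0.00227. OVOL1, a repressor that keeps epithelial identity, had 6.17, 6.02 and 6.2 at 240 min, against 6.85, 6.77 and 7.23 at 120 min, a change of -0.82 ± 0.14, adjusted p = 0.00227. ZEB1, a repressor of epithelial genes, fell by 0.41, a call lost on leaving out any array other than 120 min B (0.067 to 0.17). ZEB1 had a change of -0.04 with the filter on dim signal at the 75th percentile, -0.27 with the mean of probesets and -0.21 without the filter on dim signal and was not called there (adjusted p = 0.066 to 0.98). FERMT2, TNS3 and ZEB1 lost the call under 2, 1 and 4 of the 10 settings (adjusted p = 0.055 to 0.98).

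In the Notch and Wnt pathway, 2 of 35 members rose (5.71%, against 0.445% over all genes) and 2 fell (5.71%, against 1.1%). NOTCH1, a receptor, had 8.12, 8.22 and 8.04 at 240 min, against 8.84, 8.55 and 8.67 at 120 min, a change of -0.56 ± 0.10, adjusted p = 0.00379. JAG1, a ligand, fell by 0.39 and another ligand, DLL1, rose by 0.58, while WNT7A, a secreted Wnt ligand, rose by 0.54. NOTCH1 was called whichever array was left out, but JAG1 was lost on leaving out any array other than 120 min B (adjusted p = 0.07 to 0.22). DLL1 was lost on leaving out any array other than 120 min A (0.051 to 0.17) and WNT7A without 120 min A or any array of 240 min (0.071 to 0.096). Among 20 genes of the cornified envelope and S100 family, 1 rose (5%, against 0.445% over all genes). This was TGM2, a transglutaminase, which rose by 0.46 and was lost on leaving out any array other than 120 min B (0.059 to 0.094). Of 28 regulators of mRNA decay, BTG2 rose (3.57%, against 0.445% over all genes) and 3 fell (10.7%, against 1.1%). The falls were PAN2, a deadenylase, by 0.51, ZFP36L1, which binds AU-rich elements, by 0.48, and TNRC6B, a partner of Argonaute, by 0.44. None of those falls was called without 240 min A or 120 min B or C. ZFP36L1 and TNRC6B were also lost without 240 min B, and TNRC6B without 240 min C, with adjusted p from 0.059 to 0.24 over all of these. DLL1 had a change of 0.20 with the filter on dim signal at the 75th percentile and 0.29 with the mean of probesets and was not called there (adjusted p = 0.066 to 0.67). WNT7A had a change of 0.30 with the filter on dim signal at the 75th percentile and was not called there (adjusted p = 0.55). PAN2 had a change of -0.22 without the filter on dim signal and was not called there (adjusted p = 0.75). ZFP36L1 had a change of -0.26 with the filter on dim signal at the 75th percentile and -0.25 with the mean of probesets and was not called there (adjusted p = 0.11 to 0.57). NOTCH1, JAG1, DLL1, WNT7A, TGM2, PAN2, ZFP36L1 and TNRC6B lost the call under 1, 3, 3, 2, 1, 2, 3 and 3 of the 10 settings (adjusted p = 0.055 to 0.75).

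Of 20 circadian clock genes, 1 fell (5%, against 1.1% over all genes) and 1 rose (5%, against 0.445%). PER1, a repressor in the clock that is also induced by serum and growth factors, had 5.7, 5.68 and 5.77 at 240 min, against 6.42, 6.5 and 6.59 at 120 min, a change of -0.79 ± 0.09, adjusted p = 2.17e-05. The arrays of each time lay within 0.17 of each other for PER1, and 32 of its 35 probesets were lower at 240 min. It was at -0.48 against untreated cells at 240 min and 0.31 at 120 min. NPAS2, an activator related to CLOCK, rose by 0.48, a call lost whichever of the 6 arrays was left out (adjusted p = 0.089 to 0.21). PER2 and CRY1, other repressors of the clock, had differences of -0.05 and -0.04. PER1 changed by -0.49 with the filter on dim signal at the 75th percentile, with the call kept. NPAS2 lost the call under 4 of the 10 settings (adjusted p = 0.06 to 0.18).

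The PER1 promoter is shown because it held the E-box CACGTG, the motif bound by CLOCK and NPAS2 with BMAL1. It is given from RefSeq (GRCh38.p14, minus strand, chr17:8152355-8152654), with the E-box in capitals 173 bases before the start.
PER1: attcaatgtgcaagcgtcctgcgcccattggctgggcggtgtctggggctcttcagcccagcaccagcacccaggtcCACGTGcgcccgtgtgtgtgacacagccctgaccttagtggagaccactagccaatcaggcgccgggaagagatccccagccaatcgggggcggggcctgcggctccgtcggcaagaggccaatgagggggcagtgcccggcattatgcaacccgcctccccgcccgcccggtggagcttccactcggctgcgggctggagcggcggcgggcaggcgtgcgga
CACGTG, which reads the same on both strands, occurred in 7.69% of promoters of called rises, in 5.37% of those of called falls and in 9.34% of all. The cyclic AMP response element TGACGTCA was found in 3.85%, 4.03% and 2.74% in the same order.

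**Figure D4:**
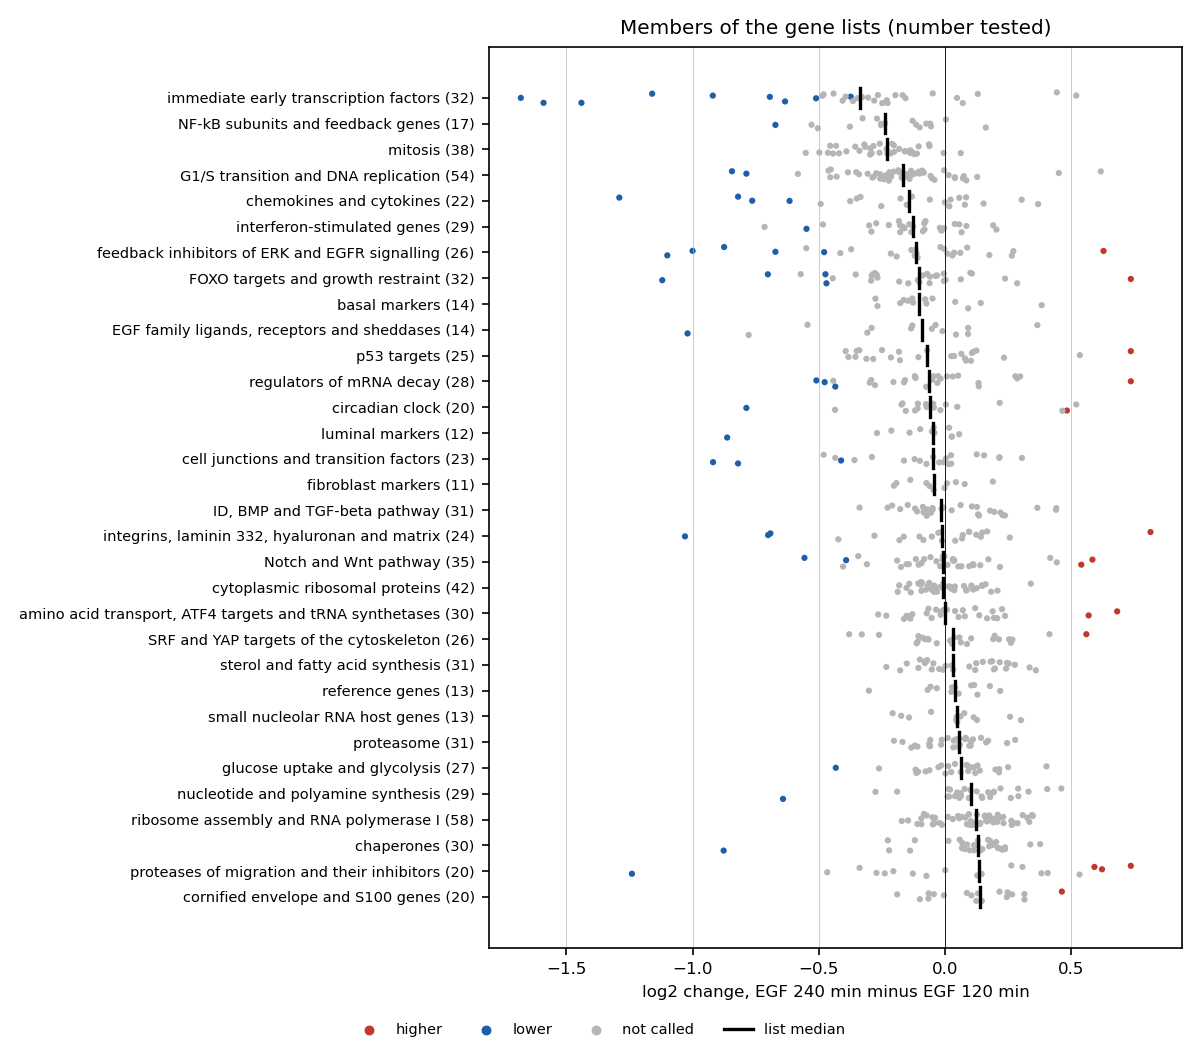
Change of each member (points, horizontal axis, log2 scale, EGF 240 min minus EGF 120 min) of the 32 gene lists, 1 list per row with its number of members tested and ordered by its median (black bar); red members were called higher at 240 min, blue ones lower. Immediate early transcription factors stand at the top with a median of -0.34 and 9 blue points, and 10 lists hold no called member.

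The genes called at 240 against 120 min were then set against untreated cells at both times. These contrasts share arrays with the comparison, so they only describe where levels lay. Of the 182 falls, 34 were called higher and 97 lower than untreated cells at 240 min, against 77 higher and 27 lower at 120 min. The median of the 182 was -0.46 at 240 min and 0.22 at 120 min. Of the 74 rises, 62 were called higher and 3 lower at 240 min, against 28 higher and 12 lower at 120 min, with medians of 0.73 and 0.20.

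The means of contrasts among the other times use none of the 6 arrays compared here. The variance of each gene came from a fit to the arrays of all times. The calls in these contrasts are therefore not independent of those at 240 against 120 min. Of 149 genes higher at 20 min than at 0 min (0.897% of those tested), 27 fell and 3 rose at 240 against 120 min, or 18.1% falls against 1.1% over all genes. Of 302 genes higher at 40 min (1.82%), 48 fell and 6 rose, 15.9% falls. Of 801 genes higher at 60 min (4.82% of those tested), 72 fell, which is 8.99% of the 801 and 39.6% of all 182 falls, and 8 rose. This number was 43 without 240 min A and 41 without 120 min C. The median changes were -0.18, -0.15 and -0.07 for genes higher at 20, 40 and 60 min. The 14 genes lower at 20 min (0.0843%) and the 69 lower at 40 min (0.415%) held no call at 240 against 120 min in limma, with 0 and 12 of them at an unadjusted p under 0.05. Of 162 genes lower at 60 min than at 0 min (0.975%), 1 rose (RIPK4) and 2 fell (NOTCH1 and ARRDC4).

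The 480 min arrays give a later reading. Of 2573 genes higher at 480 than at 0 min (15.5% of those tested), 58 rose at 240 against 120 min, 78.4% of all rises, and of 1182 genes lower at 480 min (7.11%), 83 fell, 45.6% of all falls. Of 1129 genes lower at 480 than at 60 min, 139 fell at 240 against 120 min, 12.3% of the 1129 and 76.4% of all falls, while 5 rose. Of 1241 genes higher at 480 than at 60 min, 55 rose, 4.43% of the 1241 and 74.3% of all rises, while 9 fell. Genes lower and higher at 480 than at 60 min were 6.8% and 7.47% of all tested, and their median changes at 240 against 120 min were -0.23 and 0.13. Most called genes thus lay in the direction that the interval between 60 and 480 min also showed.

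The exceptions were few and are named here because their counts are small, after their values had been seen. KLF3, AJUBA, RIPK4, EFNA1 and MIDEAS rose at 240 against 120 min but were lower at 480 than at 60 min, by 0.63, 0.41, 0.70, 0.69 and 0.51. EFNA1, a membrane-bound ephrin ligand, had 8.49, 8.48 and 8.55 at 240 min, against 7.88, 7.97 and 7.95 at 120 min, a change of 0.57 ± 0.12, adjusted p = 0.0138, and its 3 arrays at 240 min lay at least 0.51 above those at 120 min. The call of EFNA1 was lost on leaving out any array other than 120 min B (adjusted p = 0.051 to 0.072), and that of MIDEAS, a scaffold of a mitotic histone deacetylase complex, without 240 min B or 120 min B (0.053 to 0.062). Conversely, DTL, CCNE2, FAM111B, ZEB1, JAG1, GALNT4, CYP27B1, FLRT3 and SEMA4B fell at 240 against 120 min but were higher at 480 than at 60 min, by between 0.49 and 0.96. Besides the replication genes, these include the vitamin D activating enzyme CYP27B1 and FLRT3, a membrane protein that supports FGF signalling. CYP27B1 and SEMA4B lost the call whichever of the 6 arrays was left out (adjusted p = 0.055 to 0.29), FLRT3 on leaving out any array other than 120 min A (0.059 to 0.26) and GALNT4 without 240 min A or 120 min C (0.085 to 0.11). EFNA1 had a change of 0.35 with the filter on dim signal at the 75th percentile and 0.37 without the filter on dim signal and was not called there (adjusted p = 0.092 to 0.51). EFNA1, MIDEAS, GALNT4, CYP27B1, FLRT3 and SEMA4B lost the call under 3, 1, 1, 4, 2 and 5 of the 10 settings (adjusted p = 0.053 to 0.51).

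**Figure D5:**
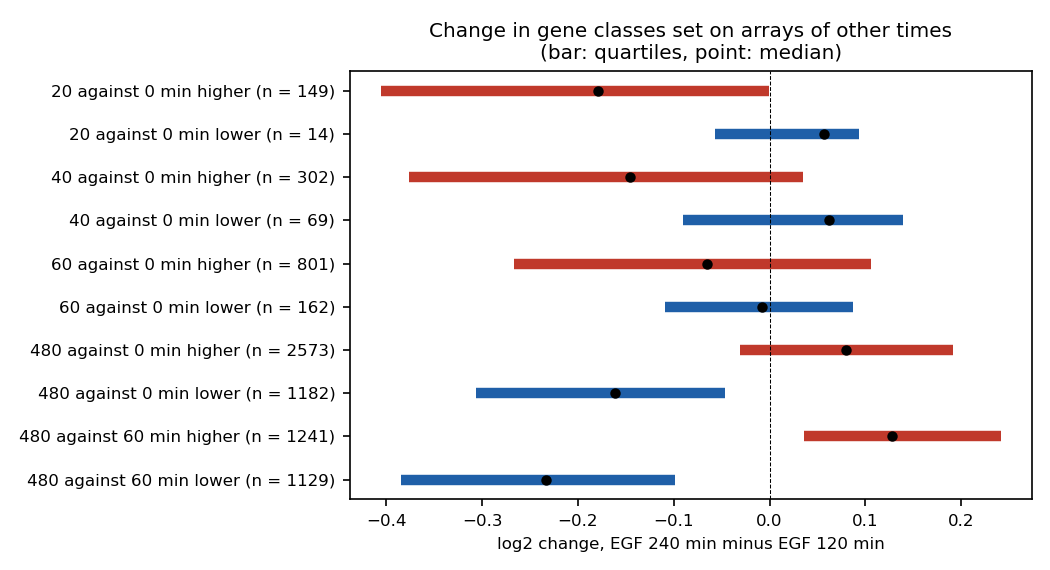
Change at EGF 240 min minus EGF 120 min (horizontal axis, log2 scale) in gene classes called higher (red) or lower (blue) in other contrasts. The number of genes in each class is given. The means of those contrasts use none of the 6 arrays compared, but the fitted variance does. Bars span the quartiles and points are medians, which are negative for genes higher at 20, 40 and 60 min and for genes lower at 480 min, and positive for genes higher at 480 min.

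The 14 basal markers tested had summed intensities of 24010 to 25620 at 240 min and 24290 to 27630 at 120 min, with no call and a median change of -0.10, and 4 had an unadjusted p under 0.05 in limma. The 12 luminal markers summed to 2676 to 3009 at 240 min, against 3107 to 3132 at 120 min. Of these FOXA1 alone was called (8.33% lower, against 1.1% over all genes). The 11 fibroblast markers summed to 1121 to 1179 at 240 min, against 1203 to 1315 at 120 min, with no call and 0 at an unadjusted p under 0.05 in limma. The summed levels of luminal and of fibroblast markers did not overlap between the times and were lower at 240 min, while those of basal markers overlapped. Such sums of intensities are weighted to their brightest members. Changes were positive for 4 of the 14 basal, 4 of the 12 luminal and 4 of the 11 fibroblast markers. Over all single genes, 8.93% did not overlap in the downward direction. None of these markers was under the level of the filter on dim signal, but gene values came only from probesets that had passed it. This therefore does not show that the markers were expressed. The part of the markers in the results was not tested. The 13 reference genes had no call, a median change of 0.04 and 1 unadjusted p under 0.05 in limma, and the 13 small nucleolar RNA host genes had no call, a median of 0.05 and 0 such p.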

How the data were processed

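RNA of MCF10A cells was measured on exon arrays, 3 per time at 7 times. Per the labels, total RNA was treated with DNase, and ribosomal RNA was removed before labelling. The authors deposited 1 linear intensity per probeset and array, made with PLIER in Affymetrix Expression Console 1.1 per the submitters' processing notes, with settings not given in the sources used here. Array medians lay between 20.4 and 20.6, so the deposited intensities were already equalised. Precision is limited by the small number of arrays.

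Of 1384231 probesets, 354600 carry 1 gene symbol in the platform annotation, 14898 several and 1014733 none here, and of 19497 symbols, 16426 were current in the GRCh38.p14 gene table, 2950 were updated and 121 kept as annotated. Intensities were taken as log2(intensity + 16). Probesets were kept at a mean over 21 arrays of at least the median of all probesets (5.18, or 20.2 on the linear scale), and a gene needed 3 of them. All 21 arrays entered limma 3.58.1 under R 4.3.3 (lmFit and eBayes, 1 mean per time, 14 residual and 7.08 prior degrees of freedom, median SD 0.17). The contrast was 240 minus 120 min, two-sided, with Benjamini-Hochberg adjustment over 16614 genes, and every adjusted p in the text comes from limma.

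The comparison, the lists (836 of 889 genes matched) and the tests were chosen with earlier results of these data known. The named genes were the 15 largest called rises and falls without overlap of the 6 arrays, up to 4 members per list with the smallest adjusted p, and members behind counts of 5 or fewer. Those said to be chosen after their values were seen lie outside that rule, as do the members of lists named beyond 4, such as JUNB, FOSL1, EGFR, CDK6, PER2 and CRY1. Promoters are RefSeq's and covered 13067 of the 16614 genes. Each time had 3 cultures, and p-values rest on the spread between cultures of the same time, pooled over the 7 times. They do not measure the spread of the 6 arrays compared alone. Alternatives were the mean of probesets, other filters, pseudocounts and normalisations, the 6 arrays alone, the replicate letter as a block, the array index, an intensity trend and each array left out.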

Additional observations from a re-analysis of the deposited data

How the results depend on the processing

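Of 214 genes run under up to 17 alternatives, the 122 called ones kept their sign throughout, and 6 of the 92 not called, CRY1, PER2, EGFR, FILIP1L, RPL19 and SMAD9, took the other sign in 12 of 1561 combinations, never passing. Of all 3626 combinations of a gene and an alternative, 3232 stayed on the same side of the threshold, 62 gained the call and the others lost it. A pseudocount of 64 made 29 of the 122 changes over 1.5 times smaller, and 27 of those kept the call. In the fit to the 6 arrays alone 49 of the 122 were lost. The number of genes called was 256 (74 higher and 182 lower, 28.9% higher). With the mean of probesets it was 459 (134 higher and 325 lower), and 135 of the 801 genes higher at 60 min were then lower, against 72. In a fit to the 6 arrays of 240 and 120 min alone it was 119 (31 higher and 88 lower). With the array index as a covariate it was 503 (224 higher and 279 lower, 44.5% higher). Leaving out each array gave 124 to 248 genes, 36 to 68 higher and 86 to 208 lower, with 16.1% to 44.2% higher, and 41 to 72 of the genes higher at 60 min lower. Quantile normalisation gave 255, pseudocounts of 1 and 64 gave 243 and 274, no filter 220, a filter at the 75th percentile 329, median centring 279 (38% higher) and an intensity trend 255.

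The replicate letters were not used as pairs in the main fit. Deviations from the group means of same-letter arrays correlated at 0.351 for A, -0.061 for B and 0.274 for C. Between arrays of different letters they correlated at -0.327 to 0.114, so A and C went with their own letter and B did not. The array index also rose from A through B to C at both times. It was 1.22, 1.33 and 1.42 at 120 min, and 1.26, 1.31 and 1.33 at 240 min. Its part in these correlations was not tested. With the replicate block 219 genes were called (62 higher and 157 lower). With the block 1 of the 35 Notch and Wnt genes was lower, against 2 without it, and 0 of the 20 clock genes were higher, against 1. Of the called genes in the text, JAG1, NPAS2, JUN, TOB2, TNRC6B, TSLP, CYP27B1 and SEMA4B were not called with the block (adjusted p = 0.054 to 0.07). Of the 15 largest falls, 14 were called under every alternative that could be run and all 15 without each array. Of the 15 largest rises, 9 were called under every alternative and 13 without each array. The cause of these differences was not tested. The limits of the data are 3 arrays per time, no untreated arrays at 120 or 240 min, and compressed changes near the filter level, where 3 falls had a 240 min mean under it.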

Other observations

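Targets of NRF2, the factor of the oxidative stress response, were listed after the data had been seen. Of 24 members tested, 3 fell at 240 against 120 min, where 1.1% of all genes fell, and 21 did not pass. None rose (1 was higher at an unadjusted p under 0.05 in limma). In all 17 changes were negative and the median was -0.09, against -0.007 over all genes. As the values were known when the list was made, these counts are only descriptive. Among members that did not pass, NQO1, HMOX1 and GCLM had differences of -0.03, 0.18 and -0.09. TXNRD1, a thioredoxin reductase, had 7.98, 8.11 and 7.92 at 240 min, against 8.59, 8.92 and 9.14 at 120 min, a change of -0.88 ± 0.16 (limma, adjusted p = 0.00368). GCLC, which catalyses the first step of glutathione synthesis, had 8.25, 8.26 and 8.42 at 240 min, against 8.74, 9.26 and 9.37 at 120 min, a change of -0.81 ± 0.18 (adjusted p = 0.0192). ABCC2, a transporter of glutathione conjugates, fell by 0.73 on the log2 scale (adjusted p = 0.00368), and 38 of its 39 probesets were lower at 240 min. The 240 min arrays lay below all 120 min arrays for TXNRD1 and GCLC. The call of GCLC was lost without 240 min A or B or 120 min B or C (adjusted p = 0.092 to 0.14), and those of TXNRD1 and ABCC2 were kept without each array. GCLC was also lost with the filter on dim signal at the 75th percentile or in the fit to the 6 arrays alone (0.059 to 0.06). Against untreated cells TXNRD1, GCLC and ABCC2 were at -0.66, -0.76 and -0.97 at 240 min and at -0.83, -1.22 and -1.52 at 480 min. Between 480 and 240 min, ABCC2 alone of the 3 passed the test, with a difference of -0.55 (adjusted p = 0.0337).

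Some called rises concerned regulators not on any list, and were also chosen after their values had been seen. ETS1, an ETS factor of invasive epithelia, had 9.13, 9.03 and 8.90 at 240 min, against 8.20, 8.38 and 8.61 at 120 min, a change of 0.62 ± 0.13 (limma, adjusted p = 0.0127). It was at 1.68 against untreated cells at 240 min, 1.05 at 120 min and 1.11 at 480 min. THRB, a thyroid hormone receptor, rose by 0.67 ± 0.15 (adjusted p = 0.0189) and was at 0.88 against untreated cells at 240 min, 0.22 at 120 min and -0.24 at 480 min. ETS1 and THRB were thus higher at 240 min than at 480 min, and both of those differences passed the test. Their calls at 240 against 120 min were lost without 240 min A or B or 120 min A or B for ETS1 (adjusted p = 0.057 to 0.1) and without 240 min A or C or 120 min A or B for THRB (0.082 to 0.098). In the fit to the 6 arrays alone neither ETS1 nor THRB was called (0.055 to 0.078), and ETS1 was not called without the filter on dim signal (0.099).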
